A study of Mus musculus with 6 samples.

Results

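Sox proteins are transcription factors that bind DNA through an HMG box, and the genes described here are 10 of those that act in neural stem cells, glia and neurons. They were taken by name from a table of 24537 genes measured in mouse brain tumors, and all 10 had enough reads to be tested. They fall into SoxB1 (Sox2, Sox3), SoxC (Sox4, Sox11), SoxD (Sox5, Sox6), SoxE (Sox8, Sox9, Sox10) and Sox21, the last a SoxB2 gene. The tumors were made by in utero electroporation, in which plasmid DNA is driven by an electric pulse into cells of the embryonic mouse brain. All 6 samples, from CD-1 IGS mice, carried PdgfraD482V, a mutant PDGF receptor, and DNp53, a dominant-negative p53. By their titles, 3 samples also carried FOXR2, a forkhead transcription factor, and the 3 titled Control did not, which a deposited sample sheet contradicts. The sources used here do not give the promoters of the constructs, the age of the mice or the number of animals. Some of the replicates may therefore be technical, although reads of sex-linked genes marked both sexes under each title. A p-value speaks only of the spread among these 6 libraries.

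SoxB1 factors keep neural progenitors undifferentiated, and Sox21 counters them. SoxC factors act as progenitors become neurons. In the glial lineage Sox9 acts early, Sox10 specifies and maintains oligodendrocytes with help from Sox8, and the SoxD factors Sox5 and Sox6 hold back the maturation of oligodendrocyte precursors.

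The titles and a deposited sample sheet are at odds for 6 of 6 libraries, each being FOXR2 in one and Control in the other. Mouse Foxr2 did not settle it, with 22, 1 and 7 counts across the FOXR2 libraries and 4, 10 and 7 across the Control libraries (here and throughout in the order replicate 1, 2, 3). Groups are therefore called by title, and each direction turns round if the sheet is right. Libraries held 13429489 to 17927025 counts, and levels are CPM (counts relative to library size, with TMM scaling between libraries). Oligodendrocyte precursor markers other than Pdgfra were abundant in each library, with a summed level of 3537 to 6858 CPM over 9 genes. FOXR2 replicate 2 stood apart with 1171 CPM of summed microglia and macrophage markers, against 4.18 to 13.9 in the other libraries. Summed markers of other cell types, over all libraries, ran from 603 to 1818 CPM for astrocytes, 1912 to 5448 for neural stem cells, 493 to 922 for mature neurons, 1.90 to 15.9 for endothelium and pericytes, 11.1 to 73.9 for Schwann and neural crest cells (without Sox10) and 1.37 to 8.23 for ependyma. Reads of Y-linked genes marked FOXR2 replicates 1 and 3 and Control replicate 1 as male, and Xist marked the others as female.

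None of the 10 genes was called higher or lower by edgeR's quasi-likelihood test, in which 2.29% of 13101 genes were called at an adjusted p (Benjamini-Hochberg, over all genes tested) under 0.05, 0.908% with a higher level under the title FOXR2 and 1.38% with a lower one. Sox11, a SoxC gene of newborn neurons, came nearest, with a level 2.45-fold higher in the libraries titled FOXR2 and the 339th smallest p. Of the 10 genes, 7 were fitted above 0 and 3 below, where 50.7% of all genes tested were above 0. The median log2 fold change was 0.45 for the 10 and 0.011 for all genes tested. An unadjusted p under 0.05 was found for 3 of the 10 (Sox11, Sox5 and Sox4), or 30% against 24.9% of all genes. The groups did not overlap for 3 of the 10 (Sox11, Sox4 and Sox2), against 30.3% of all genes. All 3 were higher in the libraries titled FOXR2, a direction in which 13.1% of all genes did not overlap, against 17.2% lower. DESeq2 called 2 of the 10 (Sox11 and Sox5), where it called 13.8% of all genes, and limma-voom called 0 of the 10, where it called 1.85%. In bulk tumor RNA, fewer cells of a type and less RNA per cell cannot be told apart.

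**Figure D1:**
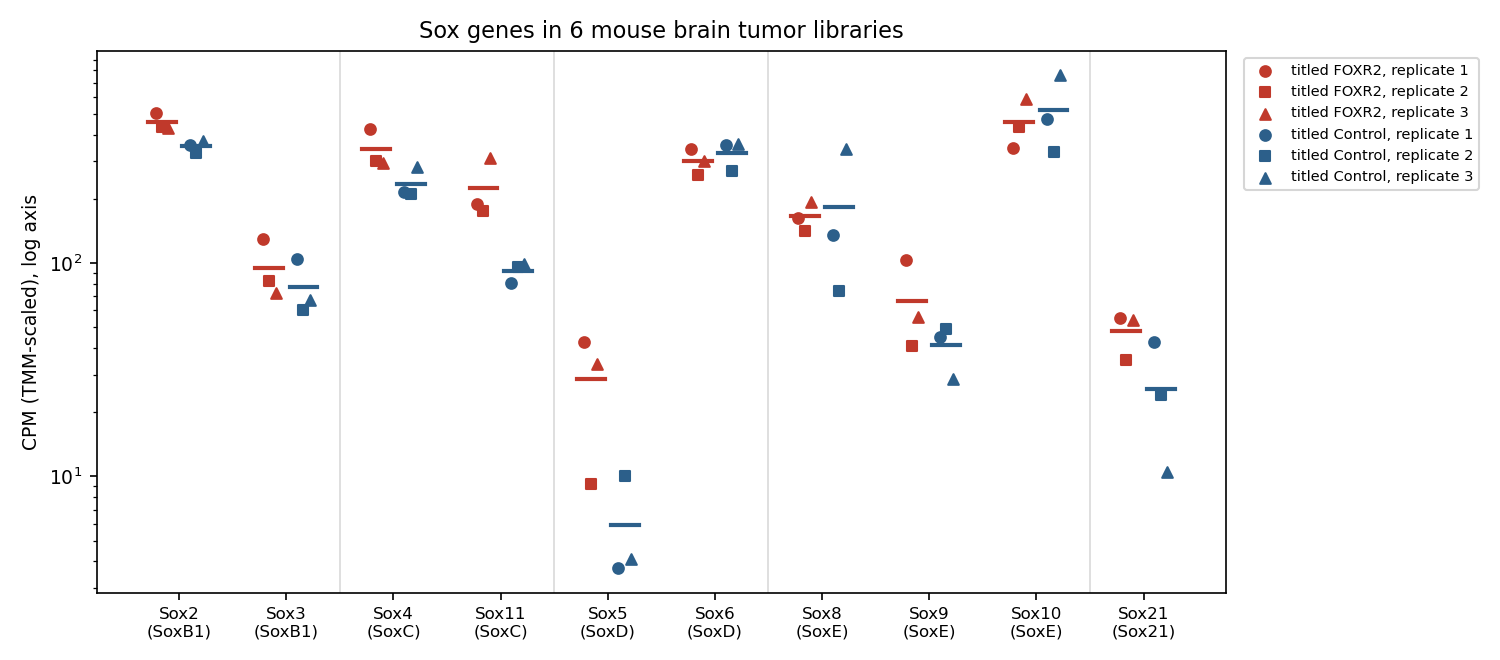
Level of each Sox gene (TMM-scaled CPM, log axis) in the 6 libraries, red for those titled FOXR2 and blue for those titled Control, with a bar at each group's mean (n = 3). Sox2, Sox4 and Sox11 show no overlap between the groups, while Sox5 is high in FOXR2 replicates 1 and 3 only.

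**Figure D2:**
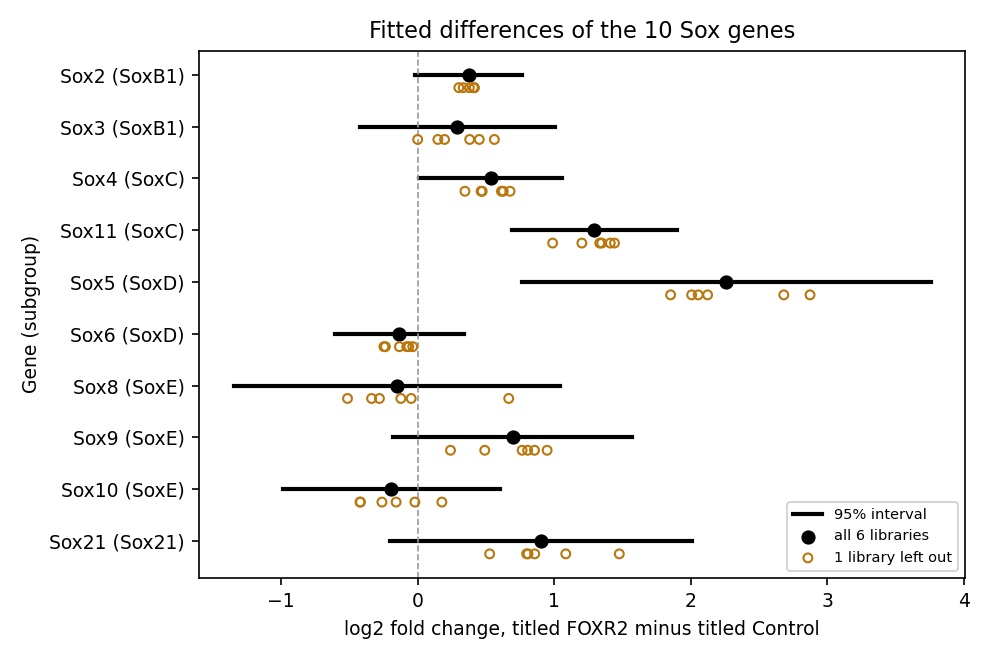
Fitted log2 fold change of each Sox gene (libraries titled FOXR2 minus titled Control) with its 95% interval from edgeR (black) and the estimates with 1 library left out (open circles). Sox11 and Sox5 lie farthest to the right, and Sox8 and Sox10 are the genes whose estimate crosses 0 when 1 library is left out.

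Of the SoxC genes, Sox4 and Sox11 were higher in each library titled FOXR2 than in any titled Control, as were 13.1% of all genes tested. Sox11 had the smallest p of the 10 genes. Sox11 (GRCm38 chr12:27334264-27342574, minus strand) stood at 189, 176 and 309.8 CPM across the FOXR2 libraries and 80.8, 95.6 and 98.9 across the Control libraries. Every library titled FOXR2 was above every library titled Control, and FOXR2 replicate 3 was the highest. The means were 225 ± 73.9 and 91.8 ± 9.61 CPM (SD, n = 3 each), or 1.29 ± 0.26 (standard error) on the log2 scale with a 95% interval of 0.69 to 1.90. The edgeR adjusted p of 0.0515 missed the threshold, and DESeq2 gave 0.000326.

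Sox4, which shares targets with Sox11 and is also expressed in glial precursors, stood at 428, 302 and 295 CPM across the FOXR2 libraries and 215, 212 and 281 across the Control libraries. Its groups did not overlap, but Control replicate 3 lay close below FOXR2 replicate 3. The log2 fold change was 0.53 ± 0.22 (95% interval 0.01 to 1.06, edgeR adjusted p = 0.194), and 0.35 without FOXR2 replicate 1, the highest library. In the GENCODE annotation 2616 bases of Sox4's exons are also exons of Gm26735, a long noncoding RNA on the other strand, and although the kit kept strand, no source used here says whether the counting did. Sox12, the third SoxC gene, lay the other way, at 110, 125 and 201 CPM across the FOXR2 libraries and 174, 163 and 173 across the Control libraries. The groups overlapped through FOXR2 replicate 3, and the fitted difference of Sox12 was -0.23 ± 0.25 on the log2 scale (edgeR adjusted p = 0.618).

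**Figure D3:**
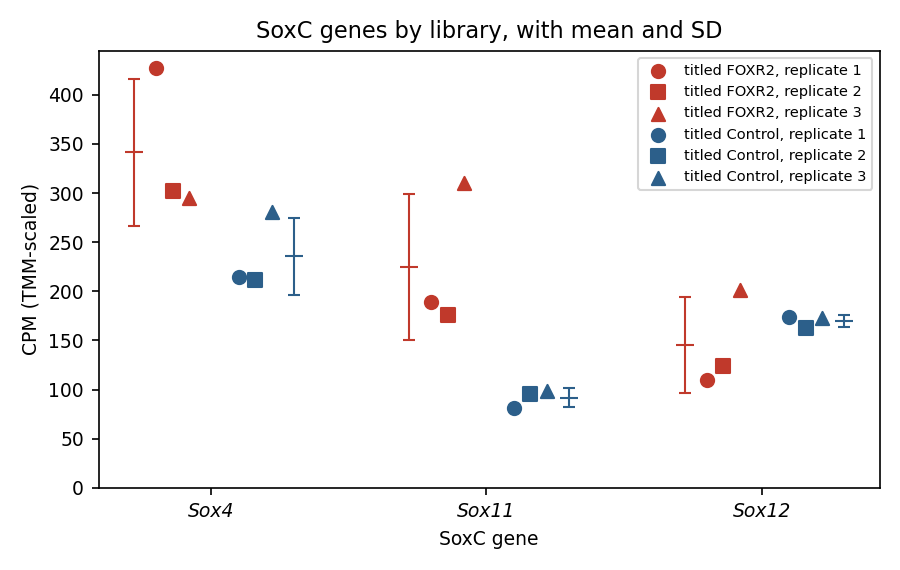
Levels of the SoxC genes (TMM-scaled CPM) in each library, with the mean and SD of each group (n = 3) beside the points. Sox11 separates the titles widely, from 176 CPM up against 98.9 down, Sox4 does so narrowly, and Sox12 overlaps.

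The SoxC pair Sox4 and Sox11 is shown with the sequence before its start sites because both genes were higher under the title FOXR2 with no overlap. This held for 13.1% of all genes tested, and edgeR called neither gene. The 250 bases before each RefSeq start (GRCm38.p6, both genes on the minus strand, Sox11 at chr12:27342719-27342968 and Sox4 at chr13:28953700-28953949) are written 5′ to 3′, with CCAAT boxes (CCAAT on either strand) in capitals.
Sox11: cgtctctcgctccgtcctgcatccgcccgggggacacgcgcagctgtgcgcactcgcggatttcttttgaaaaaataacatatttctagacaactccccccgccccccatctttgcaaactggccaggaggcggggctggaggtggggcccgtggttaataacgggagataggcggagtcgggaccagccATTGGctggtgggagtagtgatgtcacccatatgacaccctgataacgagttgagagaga
Sox4: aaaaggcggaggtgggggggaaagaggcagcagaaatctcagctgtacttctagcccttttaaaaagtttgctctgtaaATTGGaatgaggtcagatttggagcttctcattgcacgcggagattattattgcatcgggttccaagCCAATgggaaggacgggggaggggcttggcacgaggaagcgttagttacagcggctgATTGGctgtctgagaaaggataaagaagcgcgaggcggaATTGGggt
CCAAT was found 1 time before Sox11 and 4 times before Sox4, where 33.8% of 32851 listed promoters of the same length hold it at least once. GENCODE starts Sox4 at chr13:28953713, inside the Sox4 window, so the last match there lies within the gene by that annotation. It starts Sox11 at chr12:27342574, outside the Sox11 window. The Sox-type motifs AACAAT (9.42% of promoters) and ACAAAG (16.5%) and the TATA motif TATAAA (12.4%), searched on both strands, do not occur in either window. The window of Sox2, which also had no overlap between the titles and is not printed, holds 1 ACAAAG and 1 CCAAT. No motif searched holds another within it. The GC content was 58.0% before Sox11 and 50.8% before Sox4, against a median of 52.4% over all promoters. A match describes the letters only, and no binding was measured.

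Summed SoxC levels (Sox4 and Sox11) were 617, 477 and 605 CPM across the FOXR2 libraries and 296, 307 and 380.0 across the Control libraries. Markers of immature neurons, mature neurons and oligodendrocyte precursors had summed levels that lay apart between the titles in the same direction. So did those of Schwann and neural crest cells without Sox10. Their sums were 29.7, 73.9 and 19.8 CPM across the FOXR2 libraries and 11.1, 16.7 and 13.7 across the Control libraries. With Sox10, 5 of those 7 markers were tested and 0 were called, against 2.29% of all genes. Of the 5, 1 (20%) did not overlap, against 30.3%. Of immature neurons, 6 of 8 markers were tested and 0 were called, against 2.29% of all genes. All 6 were fitted above 0, against 50.7%, and 2 of the 6 (33.3%) did not overlap, against 30.3%. Their summed level over 8 genes was 475, 590.3 and 586 CPM across the FOXR2 libraries and 149.7, 139 and 295 across the Control libraries, and none of the 8 was at 0 in all libraries. Dcx alone gave 196 CPM of the sum in FOXR2 replicate 1.

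Of mature neurons, 7 of 8 markers were tested. Of these, 2 were called higher, against 0.908% of all genes. Fitted above 0 were 6, against 50.7%, and 4 (57.1%) did not overlap, against 30.3%. Summed levels were 825, 749 and 922 CPM across the FOXR2 libraries and 649, 642 and 493 across the Control libraries. Of oligodendrocyte precursors, 10 markers were tested and 0 were called, against 2.29% of all genes. Fitted above 0 were 8, against 50.7%, and 1 (10%) did not overlap, against 30.3%. Without Pdgfra, which the constructs supply, their sums were 6858, 5356 and 6314 CPM across the FOXR2 libraries and 4844, 3537 and 4837 across the Control libraries. No marker of either list was at 0 in all libraries. The part of these kinds of cell, Schwann and neural crest cells among them, in the levels of Sox4, Sox11 and Sox2 was not tested.

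The SoxB genes act in progenitors. Sox2, which maintains neural stem cells and is also kept in glial precursors, stood at 508, 437 and 432 CPM across the FOXR2 libraries and 359, 329 and 374 across the Control libraries. The groups did not overlap, with means of 459 ± 42.5 and 354 ± 23.2 CPM (SD, n = 3 each), and over all 6 libraries the highest level was 1.55 times the lowest. The log2 fold change was 0.38 ± 0.17 (95% interval -0.02 to 0.77, edgeR adjusted p = 0.217).

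Sox3, the X-linked SoxB1 gene, had 130 CPM in FOXR2 replicate 1, 82.3 in replicate 2 and 72.2 in replicate 3, and 104 in Control replicate 1, 60.5 in replicate 2 and 67.3 in replicate 3. Its highest library in each group was replicate 1, both of them male, while the male FOXR2 replicate 3 lay between female libraries. The groups overlapped (log2 fold change 0.29 ± 0.30, 95% interval -0.42 to 1.00, edgeR adjusted p = 0.590). Without FOXR2 replicate 1 the log2 fold change of Sox3 was 0.00042.

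Sox21, the SoxB2 repressor, gave 55.2, 35.3 and 54.4 CPM across the FOXR2 libraries and 42.9, 24.0 and 10.5 across the Control libraries. Control replicate 1 lay above FOXR2 replicate 2, so the groups overlapped, and Control replicate 3 was the lowest. The means of 48.3 ± 11.3 and 25.8 ± 16.3 CPM (SD, n = 3 each) gave a log2 fold change of 0.90 ± 0.47 (95% interval -0.20 to 2.01, edgeR adjusted p = 0.281), which was 0.53 without Control replicate 3 and 1.48 without Control replicate 1. On the other strand Gm4675 shares 713 exonic bases with Sox21. Sox2ot, the noncoding gene within which Sox2 lies on the same strand, stood at 38.4, 59.4 and 20.0 CPM across the FOXR2 libraries and 20.9, 14.4 and 30.0 across the Control libraries, shared no exonic base with Sox2, and overlapped between the groups (log2 fold change 0.85 ± 0.43, edgeR adjusted p = 0.269).

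The SoxD genes differed from each other in level and spread. Sox5 (GRCm38 chr6:143828425-144781977, minus strand) was the most variable of the 10, with 42.8, 9.17 and 33.7 CPM across the FOXR2 libraries and 3.72, 10.01 and 4.12 across the Control libraries. FOXR2 replicates 1 and 3 were high, and FOXR2 replicate 2 lay below Control replicate 2, so the groups overlapped. The log2 fold change was 2.26 ± 0.64 (95% interval 0.77 to 3.76), with an edgeR adjusted p of 0.0952 and 0.00393 with DESeq2. On the other strand Sox5os1 shares 1330 exonic bases with Sox5. FOXR2 replicates 1 and 3 were male, but so was Control replicate 1, the lowest of all libraries in Sox5 at 3.72 CPM. With animal sex as a covariate the log2 fold change of Sox5 was 1.85 (edgeR adjusted p = 0.309). Sox6, far more abundant, stood at 344, 258 and 299.5 CPM across the FOXR2 libraries and 356, 271 and 361 across the Control libraries. Its groups overlapped nearly whole, with a difference of -0.13 ± 0.20 on the log2 scale and an interval of -0.60 to 0.34 (edgeR adjusted p = 0.719). An offset for transcript length and GC content gave -0.43 (edgeR adjusted p = 0.264), and the value lay between -0.25 and -0.036 with 1 library left out, so its size depended on the processing.

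SoxE transcripts varied more within the titles than between them. Sox10, the oligodendrocyte lineage factor, stood at 348, 433 and 588 CPM across the FOXR2 libraries and 475, 331 and 759 across the Control libraries. The highest and the lowest library were both titled Control. The log2 fold change was -0.19 ± 0.34 (95% interval -0.99 to 0.60, edgeR adjusted p = 0.763) and 0.18 without Control replicate 3. Sox8, its partner, likewise had its highest and lowest levels in Control libraries, at 163, 141 and 194 CPM across the FOXR2 libraries and 135, 73.8 and 344 across the Control libraries. The log2 fold change of Sox8 was -0.15 ± 0.51 (95% interval -1.34 to 1.04, edgeR adjusted p = 0.880) and 0.67 without Control replicate 3. An antisense gene that shares 329 exonic bases with Sox8, 2810468N07Rik, was also highest in Control replicate 3, at 143 CPM against 19.8 to 50.4 in the other libraries, and its part in the Sox8 count was not tested.

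Sox9, the gliogenic factor, ran otherwise, with 103, 41.0 and 55.9 CPM across the FOXR2 libraries and 45.3, 49.3 and 28.7 across the Control libraries. FOXR2 replicate 1 was the highest and Control replicate 3 the lowest, and FOXR2 replicate 2 lay among the Control libraries. The log2 fold change was 0.70 ± 0.37 (95% interval -0.18 to 1.57, edgeR adjusted p = 0.292), and 0.24 without FOXR2 replicate 1.

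Markers of mature oligodendrocytes also varied within both titles. Over 10 genes, such as the myelin gene Mbp, their summed level was 221, 5180 and 1435 CPM across the FOXR2 libraries and 1694, 285 and 3891 across the Control libraries, and none was at 0 in all libraries. Sox10 was lowest in the libraries with least of these markers, FOXR2 replicate 1 and Control replicate 2, and highest in Control replicate 3, which had the second most. FOXR2 replicate 2, with the most markers, lay between Control replicate 1 and FOXR2 replicate 1 in Sox10. Sox9 was highest where these markers were lowest, in FOXR2 replicate 1. The part of mature oligodendrocytes in the SoxE levels was not tested.

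**Figure D4:**
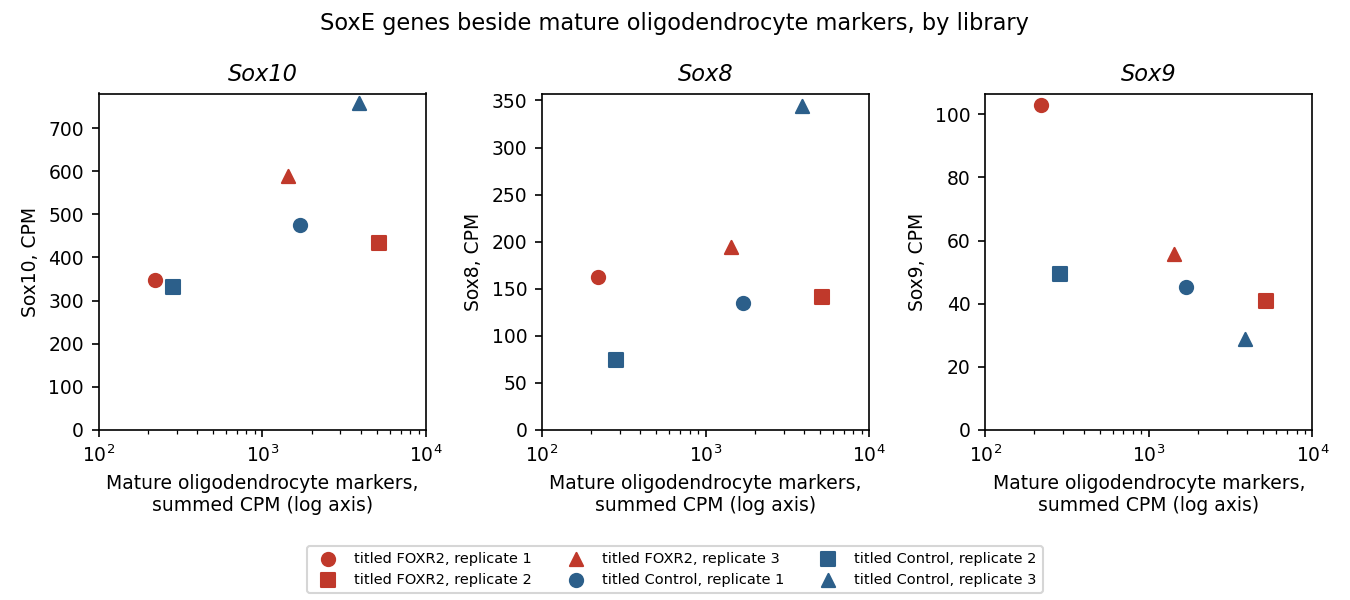
Levels of Sox10, Sox8 and Sox9 (TMM-scaled CPM, each axis from 0) against the summed CPM of 10 mature oligodendrocyte markers (log axis), 1 point per library. Control replicate 3 is highest for Sox10 and Sox8 and lowest for Sox9, and FOXR2 replicate 1, with 221 CPM of markers, is highest for Sox9.

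To set the genes against each other, levels were divided by the length of each gene's annotated exons in kilobases. Over the 6 libraries Sox2 had the highest level per kilobase, at 198 ± 31.7 CPM per kilobase (SD, n = 6), and Sox10 followed at 160.3 ± 53.0. The ranges of Sox2 and Sox10 overlapped, with Sox2 above Sox10 in 5 of 6 libraries. Sox4 (60.2 ± 16.4), Sox8 (56.1 ± 29.4) and Sox3 (41.7 ± 12.7 CPM per kilobase) came next, and neighbours among them overlapped. The range of Sox10 did not reach that of Sox4. Its lowest value (108.5, Control replicate 2) was nevertheless below the highest of Sox8 (110.3, Control replicate 3).

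Sox6 (21.2 ± 3.04 CPM per kilobase) was below Sox3 in 6 of 6 libraries with no overlap of ranges. The highest Sox6 value (24.4, Control replicate 3) was above the lowest of Sox8 (23.7, Control replicate 2). Sox11 (19.0 ± 10.4), Sox9 (13.02 ± 6.21) and Sox21 (9.75 ± 4.62) followed, each overlapping its neighbours. In FOXR2 replicate 3 Sox11 was above Sox3 (37.3 against 34.9 CPM per kilobase). Sox5 was lowest, at 1.20 ± 1.16 CPM per kilobase, and below Sox21 in 6 of 6 libraries. With the longest transcript as the length, Sox6 stood at 36.3 and Sox5 at 2.38, since their exons add up to far more than their longest transcript. By that length Sox6 was below Sox3 in 4 of 6 libraries and their ranges overlapped, so the step between Sox3 and Sox6 depends on the length used.

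Within SoxE the order Sox10, Sox8, Sox9 held per kilobase in each library, with Sox10 making up 59.7% to 75.3% of the SoxE level and Sox9 1.90% to 13.02%. Sox2 made up 77.5% to 85.7% of SoxB1. SoxC made up 17.1%, 15.0% and 15.2% of the summed level of the 10 genes across the FOXR2 libraries and 10.4%, 13.4% and 10.4% across the Control libraries, with no overlap. SoxB1 ranged from 31.6% to 47.4% and SoxE from 29.2% to 53.9%, both with overlap between the titles. A share falls when another rises, so these percentages are not independent of each other.

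**Figure D5:**
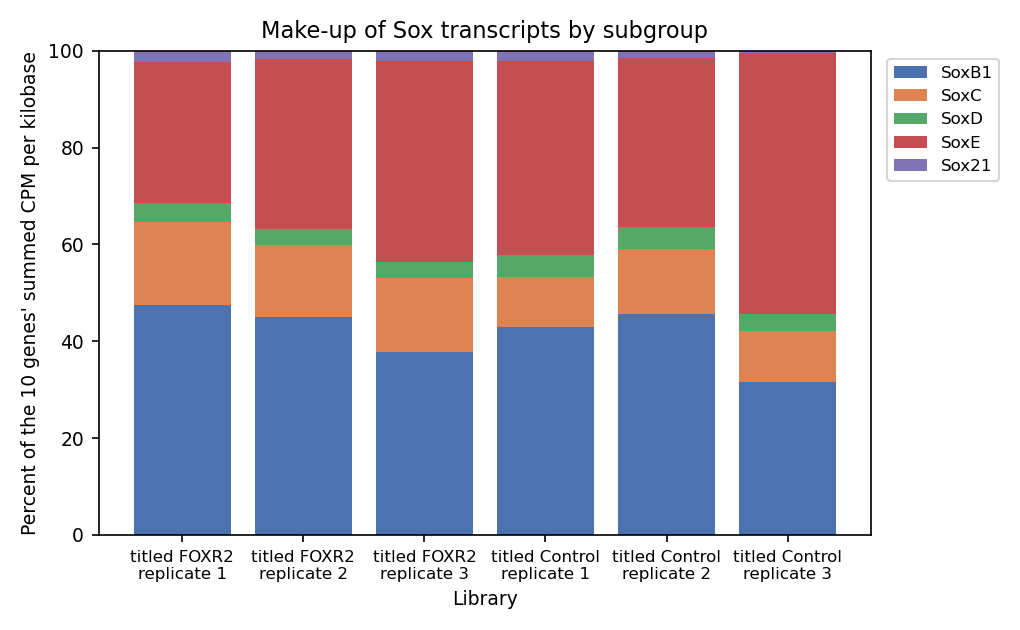
Share of each Sox subgroup in the summed level of the 10 genes (CPM per kilobase of exons, percent) in each library. SoxB1 and SoxE together make up most of each bar, and SoxC is 15.0% or more in the libraries titled FOXR2 and 13.4% or less in those titled Control.

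Of 9 other Sox genes, 3 had enough reads to be tested and 0 were called, against 2.29% of all genes. Besides Sox12, these were Sox1, the other SoxB1 gene, and Sox13, the third SoxD gene. Sox1 ranged from 0.174 CPM in Control replicate 3 to 7.76 in FOXR2 replicate 1, with both titles covering most of that range (log2 fold change 0.49 ± 1.14, edgeR adjusted p = 0.823). Sox13 stood at 2.09, 12.1 and 12.6 CPM across the FOXR2 libraries and 5.94, 3.34 and 3.89 across the Control libraries, so FOXR2 replicates 2 and 3 were high and replicate 1 was the lowest of all (log2 fold change 1.02 ± 0.65, edgeR adjusted p = 0.370). Sox7 of the endothelial SoxF group had 4 to 11 counts per library, and Sox14, Sox15, Sox17, Sox18 and Sox30 had 3 or fewer, the floor used here, which is 0.174 to 0.219 CPM and covers counting error only.

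Partners and known targets of Sox factors were read from a list of 30 genes. None was called by edgeR, against 2.29% of all genes, and 9 (30%) had an unadjusted p under 0.05, against 24.9%. Fitted above 0 were 22, against 50.7% of all genes (median of the 30 genes 0.52 on the log2 scale). Groups did not overlap for 6 of the 30 (20%), against 30.3% of all genes. The smallest adjusted p belonged to Notch1, a receptor that keeps progenitors undifferentiated, at 288, 206 and 266 CPM across the FOXR2 libraries and 130.2, 140.3 and 137 across the Control libraries. Its groups lay wide apart, with a difference of 0.90 ± 0.19 on the log2 scale (edgeR adjusted p = 0.0552; DESeq2 0.001005).

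Dcx, which binds microtubules in young migrating neurons, gave 196, 157 and 209 CPM across the FOXR2 libraries and 20.9, 15.97 and 74.5 across the Control libraries (log2 fold change 2.34 ± 0.58, edgeR adjusted p = 0.0738). With 1 library left out the difference ran from 1.99 (without Control replicate 2, adjusted p = 0.196) to 3.35 on the log2 scale. Only the latter, without Control replicate 3, the highest of its group, was called by edgeR (adjusted p = 0.0321). The neuronal tubulin gene Tubb3 and the gliogenic factors Nfia and Nfib had log2 fold changes of 1.46, 0.76 and 0.84 (edgeR adjusted p = 0.0952, 0.0795 and 0.128). Nfia and Nfib did not overlap between the titles, and Tubb3 did, through FOXR2 replicate 1.

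Partners of the oligodendrocyte lineage were also read. Olig1 and Olig2, factors of oligodendrocyte precursors, had log2 fold changes of 0.66 ± 0.35 and 0.34 ± 0.24 (edgeR adjusted p = 0.288 and 0.424). Myrf, which with Sox10 switches on myelin genes, ran from 14.5 CPM in FOXR2 replicate 1 to 476 in Control replicate 3, the library highest in Sox10 (log2 fold change -1.25 ± 1.04, edgeR adjusted p = 0.496). Erbb3, a receptor gene that Sox10 regulates in neural crest, ran from 3.001 CPM in FOXR2 replicate 1 to 92.3 in FOXR2 replicate 3 (1.09 ± 0.99, adjusted p = 0.533). Among genes tied to SoxC and SoxB1, Tead2 was fitted at -0.50 ± 0.69 (edgeR adjusted p = 0.690) and Pou3f2, a POU partner of Sox2, at 0.35 ± 0.31 (edgeR adjusted p = 0.533) on the log2 scale.

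For the most abundant gene of each subgroup, the 3 genes of nearest pattern were taken by the root mean square difference of log2(CPM + 0.5), centred on each gene's own mean, over the 6 libraries and 10489 candidates. Sestd1, Ccdc82 and Atl3 lay nearest to Sox2, at 0.042, 0.043 and 0.048. Mex3b, Hcfc2 and Chchd6 lay nearest to Sox4, at 0.053, 0.068 and 0.072, while Sox11 was at 0.53. Galnt16, Thap2 and Ehd2 lay nearest to Sox6, at 0.041, 0.052 and 0.056, and Sox5 was at 1.34. Rap1gap, Gamt and Pnkd lay nearest to Sox10, at 0.044, 0.10 and 0.12, with Sox8 at 0.37 and Sox9 at 0.88. Mmp15, Sez6 and Amot lay nearest to Sox21, at 0.14, 0.16 and 0.23. None of the other members of SoxB1, SoxC, SoxD or SoxE was among the 3 nearest.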

How the data were processed

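Groups and replicate numbers came from the sample titles. Poly(A) RNA was made into directional libraries and read to 51 bases from one end, per the labels' protocols. The deposited values are the authors' raw counts per gene symbol. The submitters' processing notes list TopHat, DESeq2 and hg19, with no versions or roles, and hg19 is a human build while the symbols are mouse. No source used here states the counting tool, annotation or strand setting. Of 24537 symbols, 23 were spreadsheet dates, kept in the fit and never named.

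The fit used edgeR 4.0.16 (R 4.3.3) with filterByExpr (count minimum 10), TMM and the quasi-likelihood F test without covariates. It kept 13101 genes, with Benjamini-Hochberg adjustment over all of them and a prior count of 0.125. Alternatives were DESeq2 1.42.0, limma-voom (limma 3.58.1), RLE factors, total counts, no filter, the replicate number as a block, animal sex as a covariate and each library left out. An offset for transcript length and GC content, known for 97.7% of tested genes, was added after seeing the data. On simulated counts with known changes, edgeR called few unchanged genes, while DESeq2 recovered more of the changed ones and called more unchanged genes than its adjusted p allows. Exon lengths came from GENCODE M21 and promoters from RefSeq, which listed 7 of the 10 members. No window of 51 bases was shared between a member's longest transcript and another Sox gene.

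The members and lists were chosen with earlier results of these data known. Genes named were the 10 members, the other Sox genes, the 6 partners and targets with the smallest adjusted p plus Olig1, Olig2, Myrf, Pou3f2, Tead2 and Erbb3, and the nearest patterns; some items are not reported here. Genes overlapping a member were named after their values were seen.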

Additional observations from a re-analysis of the deposited data

How the results depend on the processing

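Of the 10 Sox genes, 0 were called higher and 0 lower under each alternative except DESeq2, which called 2 higher, Sox11 (1.30 on the log2 scale) and Sox5 (2.27). Over 14 alternatives, Sox2, Sox3, Sox4, Sox5, Sox6, Sox9, Sox11 and Sox21 kept their direction. Sox8 turned to 0.13 with limma-voom and to 0.13 with the replicate block, and left-out libraries gave -0.51 to 0.67 for Sox8 and -0.42 to 0.18 for Sox10. With 1 library left out, Sox11 ranged from 0.99 (without FOXR2 replicate 3) to 1.44, and its adjusted p from 0.0504 to 0.183; Sox5 ranged from 1.85 to 2.87. Left-out libraries gave 0.00042 to 0.56 for Sox3 and 0.35 to 0.68 for Sox4. The length and GC offset gave -0.43 for Sox6, -0.064 for Sox8 and -0.090 for Sox10, and animal sex as a covariate 0.16 for Sox3, -0.22 for Sox6, -0.081 for Sox8 and 0.44 for Sox9. Of the other genes, Sox1 was -0.65 with animal sex as a covariate and -0.32 to 1.04 with left-out libraries, Pou3f2 -0.069 to 0.55 and Erbb3 -0.064 to 1.65. The cause was not tested.

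Over all genes, 119 were called higher and 181 lower with all libraries. DESeq2 called 947 and 947, and total-count scaling gave 119 lower. The length and GC offset gave 75 and 86, and animal sex as a covariate 7 and 0 (2398 with an unadjusted p under 0.05). Left-out libraries gave 1 to 123 higher and 0 to 82 lower, with an unadjusted p under 0.05 in 2241 to 3268 genes, where fewer samples enter the fit. Without FOXR2 replicate 2 there were 123 and 82, and without any other library at most 9 and 1. The replicate block left 0 and 0 by edgeR, with an unadjusted p under 0.05 in 2652 genes. Deviations of same-numbered libraries correlated at -0.016, -0.24 and -0.010, and FOXR2 replicate 1 correlated most with Control replicate 2 (0.25), so the numbers were not taken to pair samples. Per kilobase of the longest transcript, Sox6 moved to 36.3 and Sox5 to 2.38.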

Other observations

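Ratios between Sox genes of a library do not depend on scaling between libraries, and those given here were chosen after the values were seen, so they carry no test. The ratio of Sox12 to Sox11 in CPM was 0.581, 0.709 and 0.650 across the FOXR2 libraries and 2.15, 1.70 and 1.75 across the Control libraries. The titles lay far apart in this ratio, although Sox12 alone overlapped between them. The ratio of Sox4 to Sox11 ran from 0.953 in FOXR2 replicate 3 to 2.84 in Control replicate 3 and overlapped between the titles at FOXR2 replicate 1 (2.26) and Control replicate 2 (2.22).

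The ratio of Sox10 to Sox9, an oligodendrocyte lineage factor to a gliogenic one, was 3.38 in FOXR2 replicate 1 and 26.4 in Control replicate 3. Between these lay FOXR2 replicates 2 and 3 (10.6 and 10.5), Control replicate 1 (10.5) and Control replicate 2 (6.71), so 3 libraries of both titles were nearly alike in it. The ratio of Sox6 to Sox5 was 8.04, 28.1 and 8.89 across the FOXR2 libraries and 95.8, 27.1 and 87.6 across the Control libraries. Replicate 2 of both titles therefore sat together, between the other libraries of each title.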
